A study of Mus musculus with 36 samples.

Results

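Reprogramming of mouse embryonic fibroblasts (MEFs) toward pluripotency passes through a mesenchymal-to-epithelial transition, and 10 genes of that transition were followed here by their symbols: Cdh1, Epcam, Krt8, Krt18, Cdh2, Snai1, Snai2, Twist1, Zeb1 and Zeb2. All 10 were found among the 25239 genes of the table of P-body and cytoplasm read counts. P-bodies are cytoplasmic condensates of translationally repressed mRNA and protein, and they had been sorted as particles bearing GFP-tagged LSM14A from the cytoplasm with which they were compared. By the study's methods, that cytoplasm was a resuspended pellet of lysate cleared of nuclei. It was set aside before sorting, so it still held P-bodies. The 20 libraries of that table came from MEFs, from MEFs at day 3 of reprogramming with or without knockdown of Nudt21, and from naive and primed embryonic stem (ES) cells, with 2 P-body and 2 cytoplasm libraries for each. By the study's methods, MEFs came from mid-gestation embryos stripped of the head, the limbs and the viscera. Reprogrammable MEFs carried a doxycycline-inducible cassette of Oct4, Klf4, Sox2 and c-Myc in the Col1a1 locus, M2-rtTA at Rosa26 and a Pou5f1-EGFP reporter. Day 3 cells of these MEFs had been given doxycycline, LIF and ascorbic acid, and the knockdown used a short hairpin RNA against Nudt21. The study's reporting summary gives CD1 wild-type mice and mice with this cassette as the source of MEFs. Its methods name the mouse ES cells as v6.5, of a C57BL/6 by 129 cross, whereas the reporting summary names KH2. Naive ES cells were grown with kinase inhibitors, and primed ES cells with activin A and bFGF. All P-body donors, controls included, expressed GFP-LSM14A. A further 4 libraries came from Ago2 knockout (KO) ES cells grown from single-cell clones. Another 12 held polysome-bound or total RNA of a DDX6-degron ES cell line, also clonal. By the study's description, the controls were this same line without dTAG-13, and DDX6 was degraded by dTAG-13 given for a few hours. Whether the MEF libraries came from reprogrammable MEFs, and whether MEF and ES libraries were prepared together, is not given in the sources used here. The study describes its replicates as biologically independent, whereas no label states whether they came from separate cultures, and the p-values measure the spread between these libraries.

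Epithelial cells hold to one another through adherens junctions built on E-cadherin, the product of Cdh1, and carry a cytoskeleton of paired keratins such as those of Krt8 and Krt18. Mesenchymal cells use N-cadherin, the product of Cdh2, and express the transcription factors of Snai1, Snai2, Twist1, Zeb1 and Zeb2, which repress Cdh1 and other epithelial genes. The SNAI and ZEB proteins bind E-box hexamers in promoters, and the microRNAs of the miR-200 family bind the Zeb1 and Zeb2 mRNAs through their seeds, so that repressor and microRNA hold each other down. MicroRNA levels were not measured here.

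The mature miR-200 microRNAs are shown because their seeds define the sites searched for in the members. They fall into 2 seed groups, which differ at 1 base of the seed, and the capitals mark bases 2 to 8 of each RefSeq sequence.
mmu-miR-200b-3p: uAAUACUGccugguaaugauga
mmu-miR-200c-3p: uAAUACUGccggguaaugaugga
mmu-miR-429-3p: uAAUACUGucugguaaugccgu
mmu-miR-200a-3p: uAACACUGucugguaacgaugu
mmu-miR-141-3p: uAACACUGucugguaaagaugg
The 7-base matches to these seeds, CAGTATT and CAGTGTT, were counted over the longest coding GENCODE M21 transcript of 8 members, in its 3′ untranslated region (UTR). Cdh2 and Zeb1 were not analysed for sequence. The 4941-base 3′ UTR of Zeb2 held 9 such matches, the first at base 209 and the last at base 4163 after the stop codon. Among the 822 genes with a 3′ UTR at least as long, 68.6% held a match in a stretch of that length and 0.122%, which is Zeb2 alone, held at least as many. Snai2 held 2 matches in 1089 bases, a number reached by 3.95% of 9498 genes over that length. Snai1 held 1 in 731 bases, where 16% of 12034 genes held at least as many. Cdh1, Epcam, Krt8, Krt18 and Twist1 held 0. The first 3 sites of Zeb2 after the stop codon and the sites of both Snai genes are given as 30-base stretches of mm10, with the match in capitals.
Zeb2, chr2:44988347-44988376, minus strand: aaaaattttgtaCAGTGTTaaggcctaaaa
Zeb2, chr2:44988163-44988192, minus strand: actaccatacatCAGTATTttattattatt
Zeb2, chr2:44988098-44988127, minus strand: actacagtgcatCAGTATTacgattcctca
Snai1, chr2:167542267-167542296, plus strand: cctcctacccctCAGTATTcatgaggtgta
Snai2, chr16:14708297-14708326, plus strand: gtggcgcaacCAGTGTTtactcaaacagaa
Snai2, chr16:14708711-14708740, plus strand: caaccaaaggaaCAGTATTtcttcttaata
These matches describe the letters of the transcripts and do not show that a microRNA was bound there.

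Promoter windows, from 250 bases before to 50 bases after a start site, were taken from RefSeq (GRCm38.p6, the build of mm10). They were examined for 5 members: Epcam, Krt18, Snai1, Twist1 and Zeb2. Cdh1, Cdh2, Snai2 and Zeb1 had no entry in the table of windows used here. The E-box hexamers CACCTG and CAGGTG, which are each other's reverse complement, stood in the windows of 3 of the 5, namely Epcam, Krt18 and Snai1. Of all 32851 windows, 20.2% held at least 1, and of the 27025 genes with a window, 22.6% did. Epcam held 2, at 187 and 19 bases before its start site, and Krt18 and Snai1 held 1 each, at 214 and 126 bases before theirs. The sequence around each is printed because these hexamers are what SNAI and ZEB proteins recognise, with the hexamer in capitals.
Epcam, chr17:87635780-87635809, plus strand: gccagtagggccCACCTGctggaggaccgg
Epcam, chr17:87635948-87635977, plus strand: acccataaaaccCAGGTGtggaggagaagc
Krt18, chr15:102027990-102028019, plus strand: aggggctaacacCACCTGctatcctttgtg
Snai1, chr2:167538057-167538086, plus strand: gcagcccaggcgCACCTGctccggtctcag
Binding of any factor to these windows was not measured.

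The libraries held 6769727 to 12772173 assigned reads in ES cell fractions and 19384697 to 31185799 in MEF and day 3 fractions. Levels are given as CPM, the assigned reads of a gene scaled to the same library total, which were not divided by gene length and so are compared within a gene only. Replicates of the naive cytoplasm and of the day 3 control P-bodies stood far apart (chi-square divided by its degrees of freedom, 28.0 and 49.4, against 1.78 in naive P-bodies). Nudt21, the knockdown target, was 89.1 and 92.2 CPM in day 3 control cytoplasm and 5.72 and 5.01 CPM in the libraries labelled knockdown. All 6 fibroblast markers had reads in every MEF and day 3 library. Their summed level in the cytoplasm was 13788 to 14824 CPM in MEFs, 3651 to 3768 CPM in day 3 controls, 1222 to 1237 CPM in the knockdown and 1.78 to 20.5 CPM in ES cells. Of 8 lung epithelial markers, 7 had reads in both MEF P-body libraries, where they summed to 6.16 and 90.1 CPM, and all 8 were at 0 in both MEF cytoplasm libraries. The defining lung gene Nkx2-1 was at 0 in the MEF P-body libraries as well. Of 7 pluripotent cell markers, the summed level in the cytoplasm was 0.398 to 0.994 CPM in MEFs, 184 to 195 CPM in day 3 controls, 411 to 444 CPM in the knockdown, 5248 to 7170 CPM in naive and 2248 to 2375 CPM in primed cells, and it includes Pou5f1, which the cassette carries. The blood cell markers summed to 1.99 to 2.66 CPM in MEF cytoplasm and 102 to 105 CPM in the knockdown, most of the latter from Cd68, which stood at 11.3 and 14.9 CPM in day 3 controls, while the defining gene Ptprc had at most 1 read in each of these day 3 libraries. The endothelial markers summed to 1.19 to 2.19 CPM in MEF cytoplasm, 202 to 213 CPM in day 3 controls and 170 to 182 CPM in the knockdown. At day 3 most of that sum came from Tek. The same markers summed to 428 to 467 CPM in naive and 30.1 to 30.6 CPM in primed cytoplasm, so they were not particular to day 3. The part of either list in the day 3 results was not tested. These are bulk libraries, in which fewer cells of a type and less RNA per cell cannot be told apart. Exons of Zeb2 overlap the antisense gene Zeb2os, and those of Krt8 and Zeb1 overlap other annotated genes on the opposite strand. The P-body and cytoplasm libraries of MEF, day 3, naive and primed cells do not mark strand, so there reads of such partners cannot be separated.

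**Figure D1:**
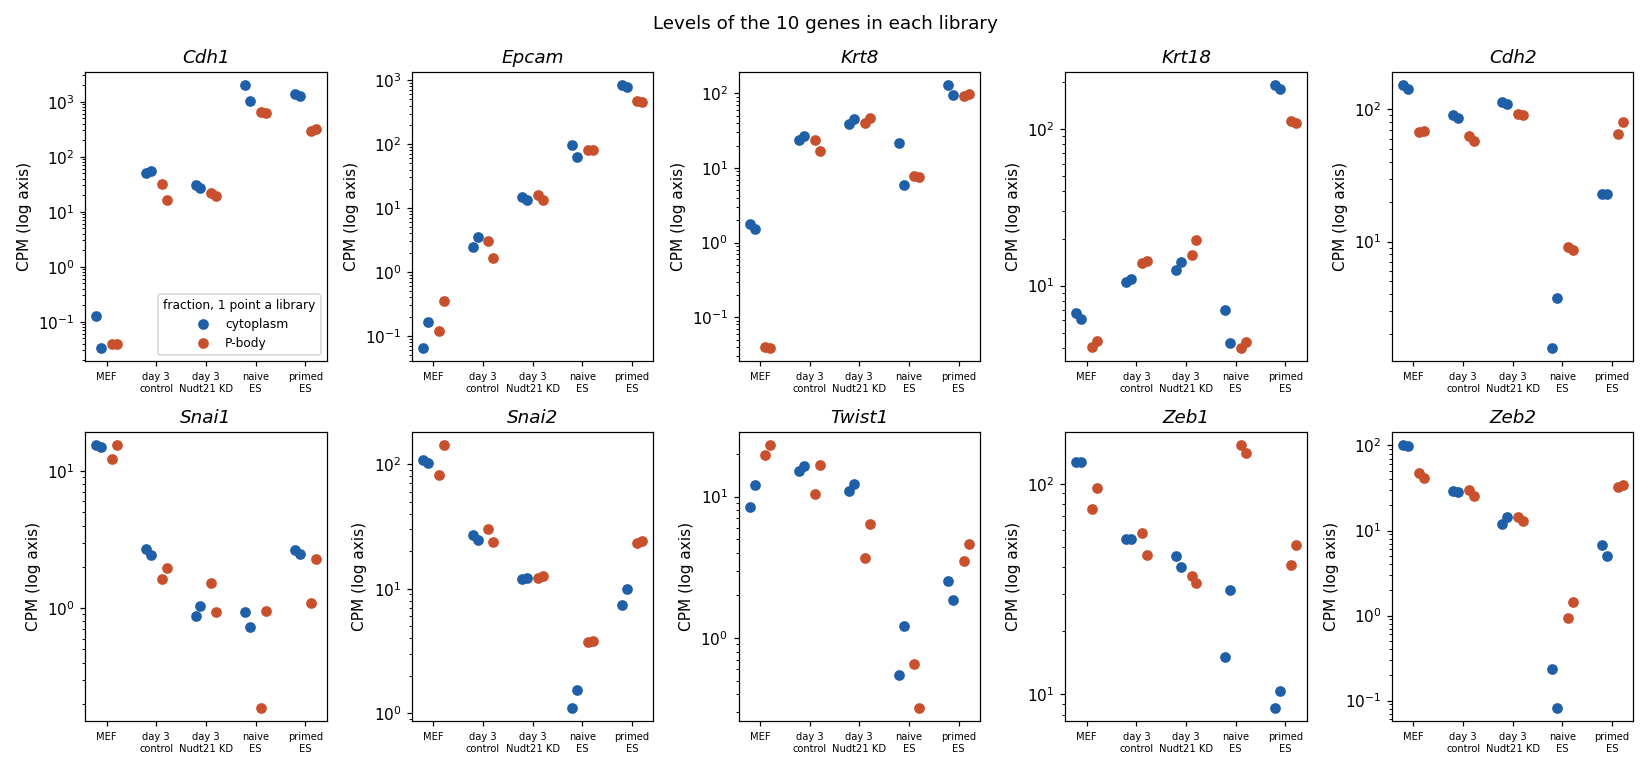
Level of each of the 10 genes in every P-body (orange) and cytoplasm (blue) library, in CPM on a log axis, for MEFs, day 3 control, day 3 Nudt21 knockdown, naive ES and primed ES cells. Each point is a library. Cdh1 in the cytoplasm ran from 0.0332 CPM in a MEF library to 2010.2 CPM in a naive library, and Zeb1 was the mesenchymal gene whose naive P-body libraries, at 152 and 139 CPM, stood above those of its MEF P-bodies.

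The first comparison asked how far the transition had gone in the cytoplasm after 3 days of reprogramming. The 4 epithelial members rose, and Cdh2, Snai1, Snai2, Zeb1 and Zeb2 fell, while Twist1 rose. All 10 passed the edgeR quasi-likelihood test at an adjusted p under 0.05. Calls were frequent in this comparison, at 35.5% of all tested genes higher and 33.7% lower. The epithelial members had a median log2 fold change of 4.12 and the mesenchymal members of −1.66, beside 0.04 over all genes tested.

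Cdh1 was almost without reads in MEF cytoplasm, at 4 and 1 reads or 0.128 and 0.0332 CPM, and reached 50.1 and 53.8 CPM at day 3. The ratio of the summed reads was 637, with a 95% exact interval of 273 to 1963 for counting error only. Its fitted log2 fold change of 9.08 ± 0.23 (SE, adjusted p = 1.61e-14) rests on those few MEF reads. Epcam, which encodes a cell adhesion molecule of epithelia and ES cells, went from 0.0641 and 0.166 CPM to 2.43 and 3.5 CPM, so it was still low at day 3. Its reads rose 25.9-fold (95% exact interval 12.3 to 65.5). Krt8 was present in MEFs at 1.80 and 1.53 CPM and reached 23.4 and 26.7 CPM, a log2 fold change of 3.75 ± 0.16 (adjusted p = 1.02e-11). Its partner Krt18 moved much less, from 6.64 and 6.14 CPM to 10.5 and 11 CPM, a log2 fold change of 0.59 ± 0.15 (adjusted p = 0.00217). Both MEF libraries lay below both day 3 libraries for each of these genes.

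Among the repressors, Snai1 fell most, from 15.4 and 15 CPM to 2.69 and 2.42 CPM, a log2 fold change of −2.73 ± 0.16 (adjusted p = 3.85e-10). Snai2 fell from 109 and 102 CPM to 27.2 and 24.7 CPM, a log2 fold change of −2.18 ± 0.08 (adjusted p = 1.24e-12). Zeb2 fell from 101 and 98.5 CPM to 29.5 and 28.1 CPM, a log2 fold change of −1.95 ± 0.08. Zeb1, its paralogue, fell less, from 127 and 126 CPM to 54.7 and 54.6 CPM, a log2 fold change of −1.37 ± 0.07. Replicates of these genes lay close together compared with the distance between the groups. Cdh2 was still at 91.4 and 85.7 CPM at day 3 against 153 and 144 CPM in MEFs, a log2 fold change of −0.91 ± 0.07 (adjusted p = 6.00e-09). N-cadherin mRNA thus had the smallest fall of the 5 mesenchymal members that fell. Twist1, a basic helix-loop-helix factor, stood at 8.40 and 12.1 CPM in MEFs and at 15.2 and 16.4 CPM at day 3, and its rise of 0.46 ± 0.16 on the log2 scale (adjusted p = 0.0155) was the call with the highest adjusted p of the 10. Twist1 was not called by DESeq2, nor without MEF cytoplasm replicate 1 (0.22) or day 3 control cytoplasm replicate 2 (0.41).

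**Figure D2:**
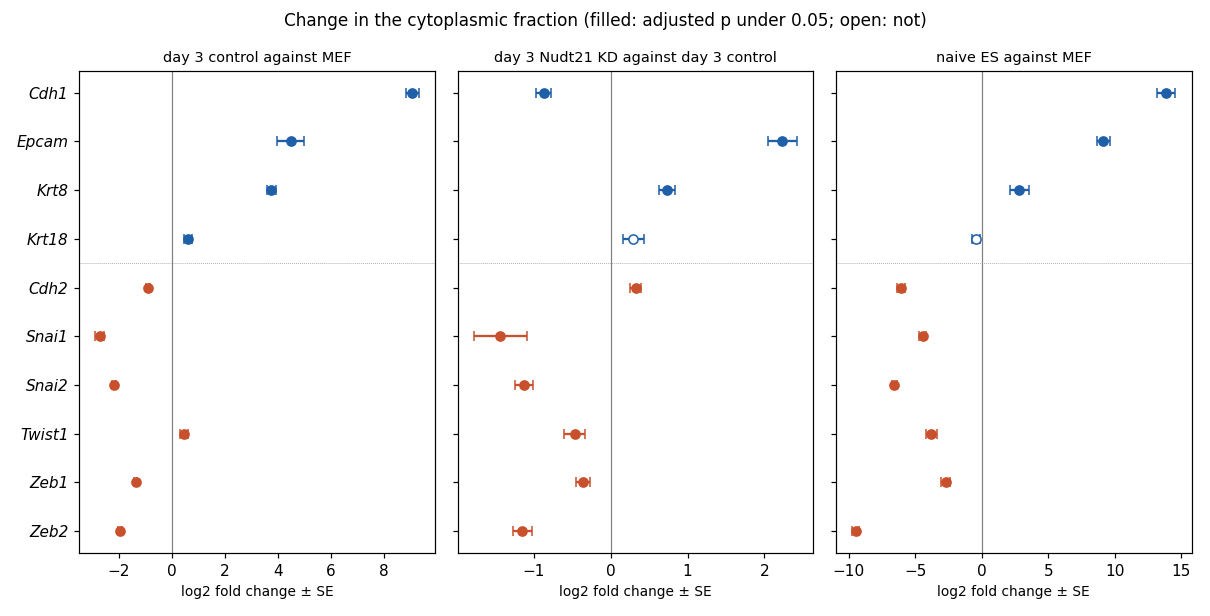
Log2 fold change with SE of the 10 genes in the cytoplasm, for day 3 control against MEF, Nudt21 knockdown against day 3 control, and naive ES against MEF, with 2 libraries a group. Epithelial genes are blue and mesenchymal genes orange, and filled points passed an adjusted p under 0.05. The panels have different axis ranges. Cdh1 lies at 9.08, −0.88 and 13.86, and Twist1 at 0.46, −0.47 and −3.79.

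Nudt21 encodes a subunit of the cleavage factor that favours distal polyadenylation sites, and its knockdown was compared with the control at the same day. In the cytoplasm Epcam and Krt8 rose and the 5 transcription factors fell, while Cdh1 also fell and Cdh2 also rose. Of the 10 genes 9 were called, 3 higher and 6 lower, where 24.6% of all tested genes were higher and 25% lower. Epcam went from 2.43 and 3.5 CPM to 14.8 and 13.4 CPM, a log2 fold change of 2.23 ± 0.19 (adjusted p = 3.91e-08). Krt8 reached 39.2 and 45.1 CPM, a log2 fold change of 0.73 ± 0.11. Krt18 stood at 12.6 and 14.2 CPM, and its log2 difference of 0.29 ± 0.14 was not called (adjusted p = 0.0967). Cdh1 went against the other epithelial members, with 30.4 and 26.7 CPM in the knockdown below 50.1 and 53.8 CPM in the control, a log2 fold change of −0.88 ± 0.10 (adjusted p = 1.08e-06).

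The repressors were lower still in the knockdown. Zeb2 stood at 11.9 and 14.4 CPM, a log2 fold change of −1.15 ± 0.12, and Snai2 at 11.9 and 12.1 CPM, a log2 fold change of −1.13 ± 0.12. Snai1 reached 0.878 and 1.04 CPM, or 27 and 22 reads, a log2 fold change of −1.44 ± 0.35. Smaller shifts were seen for Twist1 (−0.47 ± 0.14), Zeb1 (−0.36 ± 0.09) and Cdh2 (0.32 ± 0.07). Twist1 was not called without day 3 control cytoplasm replicate 2 (−0.41) or day 3 Nudt21 cytoplasm replicate 1 (−0.37). When all 20 libraries shared a single estimate of the spread, 5 of the 10 were called, and Krt8, Cdh2, Twist1 and Zeb1 were no longer among them (adjusted p 0.092 to 0.22 in edgeR). The summed fibroblast markers fell over the same comparison, from 3651 to 3768 CPM to 1222 to 1237 CPM, and their part in these changes was not tested.

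Naive ES cells were set against MEFs as a pluripotent reference. They were not a product of this reprogramming, and they differ from the MEFs in line and culture medium as well as in cell state. In the cytoplasm 9 of the 10 were called, 3 higher and 6 lower, where 36% of all tested genes were higher and 35.9% lower. Cdh1 reached 2010.2 and 1044.9 CPM in naive cells, against 5 reads in all in MEFs. Epcam reached 96.2 and 62.4 CPM, a ratio of summed reads of 697 (95% exact interval 338 to 1737). Krt8 stood at 21.9 and 5.84 CPM, so that the naive replicates lay far apart, and its log2 fold change of 2.83 ± 0.68 became 1.56 without naive cytoplasm replicate 1. It was not called without either MEF cytoplasm library (2.97 and 2.71). Krt18 overlapped between the groups, at 6.97 and 4.30 CPM in naive cells and 6.64 and 6.14 CPM in MEFs, and was not called (log2 fold change −0.42 ± 0.32, adjusted p = 0.275). Without naive cytoplasm replicate 1 it was called lower, at −0.82.

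All 6 mesenchymal members were lower in naive ES cells. Zeb2 was down to 3 and 1 reads, and MEFs held 625 times as much (95% exact interval 244 to 2294). Snai2 stood at 1.1 and 1.54 CPM, a log2 fold change of −6.57 ± 0.18, and Cdh2 at 1.57 and 3.73 CPM, a log2 fold change of −6.07 ± 0.32. Twist1 kept 7 and 15 reads and Snai1 12 and 9, with log2 fold changes of −3.79 ± 0.42 and −4.43 ± 0.27. Zeb1 was the mesenchymal member with the highest share of its MEF level left, at 15 and 31.2 CPM in naive cells (log2 fold change −2.72 ± 0.32). In every library the day 3 control levels of Cdh1, Epcam, Cdh2, Snai1, Snai2, Zeb1 and Zeb2 lay between those of MEFs and naive cells. Krt8, Krt18 and Twist1 stood higher at day 3 than in either.

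Primed ES cells had less of Zeb1 than naive cells and more of most other members. Of the 10 members, 1 was called higher and 6 lower in naive than in primed cytoplasm, where 22.1% of all tested genes were higher and 21.6% lower. Cdh1 was not called between the states, at 1353 and 1257 CPM in primed cells and 2010.2 and 1044.9 CPM in naive cells (log2 fold change 0.44 ± 0.31, adjusted p = 0.291). Without naive cytoplasm replicate 2 it was called higher in naive cells, at 0.84. Epcam was 841 and 770 CPM in primed cells, and its log2 fold change of −3.14 ± 0.25 separated the states by more than any spread between replicates. Krt18, at 191 and 181 CPM, and Krt8, at 129 and 94.9 CPM, were also higher in primed cells, with log2 fold changes of −4.83 ± 0.26 and −2.79 ± 0.58. Primed cells had more Cdh2 (23.0 and 22.8 CPM), Snai2 (7.39 and 9.98 CPM) and Zeb2 (6.79 and 4.99 CPM) as well, with log2 fold changes of −2.92, −2.52 and −4.90. Zeb1 went the other way, at 8.57 and 10.3 CPM in primed cells, a log2 fold change of 1.47 ± 0.36 (adjusted p = 0.0215). Without primed cytoplasm replicate 1 or replicate 2, Zeb1 was not called (1.33 and 1.6), nor was Krt8 without replicate 1 (−2.56) or Snai2 without replicate 2 (−2.30). Snai1 and Twist1 rested on 7 to 20 reads a library and were not called (adjusted p = 0.0519 and 0.155), but Snai1 was called without naive cytoplasm replicate 1 (−1.64) and Twist1 without replicate 2 (−1.74).

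Wider lists of the same biology moved in the cytoplasm as follows. Of 40 genes of epithelial junctions and identity, 33 were tested at day 3 against MEFs, with 20 higher and 3 lower and a median log2 fold change of 2.15. Among those with a mean of at least 10 CPM, Ehf, Perp and St14 changed most, and St14, a membrane serine protease of epithelia, rose from a mean of 0.713 to 37.1 CPM. Of 35 genes of mesenchymal identity, 4 were higher and 30 lower, with a median of −1.90. Postn, Pdgfra and Lox fell most, and Lox, which cross-links collagen, fell from a mean of 1997 to 129.6 CPM. In the Nudt21 knockdown 21 of 39 epithelial genes tested were higher and 3 lower (median 0.89), and 3 of 35 mesenchymal genes were higher and 23 lower (median −0.96). The collagen gene Col3a1 and the smooth muscle genes Acta2 and Tagln had the largest falls, with log2 fold changes of −2.01, −2.09 and −2.02. The median of all genes lay between −0.01 and 0.04 in these comparisons. Of all genes tested, 35.5% were higher and 33.7% lower at day 3 than in MEFs, and 24.6% and 25% in the knockdown.

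Of 22 genes of TGF-beta and BMP signalling, which drives and restrains the reverse transition, 7 were higher and 13 lower at day 3 than in MEFs. In that comparison 35.5% of all tested genes were higher and 33.7% lower, so the number higher lay near its share. Id1 and Id2, targets of BMP signalling, rose by 4.39 and 4.49 on the log2 scale, and the ligand gene Tgfb3 fell by 2.67. The knockdown had 4 higher and 13 lower, where 24.6% of all tested genes were higher and 25% lower. Tgfb3 and Tgfb2 were lower by 1.36 and 1.28 and Skil, an inhibitor of SMAD signalling, was higher by 2.09. Of 11 partners of the cadherins, 6 were higher and 5 lower at day 3 and 5 lower in the knockdown, where Ctnnb1, the gene of beta-catenin, fell from a mean of 806 to 412 CPM. In naive ES cells against MEFs 31 of 37 epithelial genes tested were higher and 5 lower (median 5.76), and 1 of 35 mesenchymal genes was higher and 34 lower (median −7.82). There 36% of all tested genes were higher and 35.9% lower.

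P-body enrichment, the log2 ratio of P-body over cytoplasm level within a cell state, was examined next. In MEFs Cdh2, Zeb1, Zeb2, Krt8 and Krt18 were P-body-depleted and Twist1 was enriched. Of the 9 members tested, 1 was P-body-enriched and 5 were depleted, where 26.6% of all tested genes were enriched and 28.7% depleted. Cdh1, with 1 read in each MEF P-body library, fell under the minimum of 10 reads and was not tested. Zeb2 stood at 47.2 and 41.3 CPM in P-bodies against 101 and 98.5 CPM in the cytoplasm, a log2 enrichment of −1.19 ± 0.10 (adjusted p = 1.67e-05). Cdh2 stood at 67.2 and 68.4 CPM against 153 and 144 CPM, a log2 enrichment of −1.15 ± 0.09. Zeb1 was depleted less, at −0.58 ± 0.12, and was not called without either MEF cytoplasm library (−0.55 and −0.58). In these genes both P-body libraries lay below both cytoplasm libraries.

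Twist1 was the MEF-enriched member, at 19.6 and 23.0 CPM in P-bodies and 8.40 and 12.1 CPM in the cytoplasm, a log2 enrichment of 1.04 ± 0.19 (adjusted p = 0.00127). Snai1 and Snai2 overlapped between the fractions, and Snai2 differed between the P-body libraries, at 82.3 and 141 CPM. Its log2 enrichment was 0.07 ± 0.20, and it was called either way by single libraries, enriched at 0.41 without MEF P-body replicate 1 and depleted at −0.36 without replicate 2. Krt8 had 1 read in each P-body library and 56 and 46 in the cytoplasm, a ratio of 0.0235 with a 95% exact interval of 0.00281 to 0.0871. Krt18 was depleted by much less, at 4.03 and 4.45 CPM against 6.64 and 6.14 CPM (log2 enrichment −0.61 ± 0.20), and was not called without either MEF cytoplasm library (−0.53 and −0.65). Epcam had 3 and 9 reads in P-bodies and 2 and 5 in the cytoplasm and was not called. The lung epithelial markers, at 6.16 and 90.1 CPM in these P-body libraries and 0 in the cytoplasm, were higher in replicate 2. That library also had more reads of Epcam, Krt18, Cdh2, Snai1, Snai2, Twist1 and Zeb1. It had fewer of Zeb2 and as many of Cdh1 and Krt8. The part of the lung markers in these values was not tested.

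Few members passed the test of enrichment at day 3. In control cells edgeR called 0 of the 10, where 0.196% of all tested genes were enriched and 0.45% depleted, 2 of the 10 had an unadjusted p under 0.05, and DESeq2 called 2. Of the 15786 genes tested, 3899 had an unadjusted p under 0.05 and DESeq2 called 2105. The 2 members were Cdh1, at 31.9 and 16.6 CPM in P-bodies against 50.1 and 53.8 CPM (log2 enrichment −1.09 ± 0.28), and Cdh2, at 62.7 and 58.1 CPM against 91.4 and 85.7 CPM (−0.54 ± 0.12). Their edgeR adjusted p-values were 0.104 and 0.0856. Zeb2 lay at 29.8 and 25.8 CPM in P-bodies and 29.5 and 28.1 CPM in the cytoplasm, a log2 enrichment of −0.04 ± 0.15, and Zeb1 at −0.05 ± 0.15. Leaving out day 3 control P-body replicate 1 or replicate 2 gave 4 and 3 calls, with Cdh1 and Cdh2 depleted in both.

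In the Nudt21 knockdown 2 members were depleted and 0 enriched, where 9.04% of all tested genes were enriched and 12.8% depleted. Twist1 had 3.66 and 6.45 CPM in P-bodies against 10.9 and 12.3 CPM in the cytoplasm, a log2 enrichment of −1.19 ± 0.24 (adjusted p = 0.00781). Cdh1 stood at 22.3 and 19.6 CPM against 30.4 and 26.7 CPM (−0.44 ± 0.14, adjusted p = 0.0416). Without day 3 Nudt21 cytoplasm replicate 2 neither was called, and Cdh1 was called only when P-body replicate 1 was the library left out, when 5 members were called. Epcam, Krt8, Snai2 and Zeb2 had log2 enrichments between 0.04 and 0.07, with SEs from 0.13 to 0.16.

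The mesenchymal members called in ES cells were all higher in P-bodies, and the epithelial members called were all lower. In naive cells Cdh2, Snai2, Zeb1 and Zeb2 were enriched and 0 members depleted, where 22.6% of all tested genes were enriched and 15.4% depleted. In primed cells Cdh2, Snai2, Twist1, Zeb1 and Zeb2 were enriched, and Cdh1, Epcam and Krt18 were depleted, where 26.5% of all tested genes were enriched and 24.2% depleted. The median log2 enrichment of the mesenchymal members was 1.85 in naive and 1.58 in primed cells, beside −0.06 and 0.00 over all genes tested. That of the epithelial members was −0.43 and −0.73.

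Zeb1 reached 152 and 139 CPM in naive P-bodies, well above its 15 and 31.2 CPM in the naive cytoplasm, a log2 enrichment of 2.89 ± 0.32 (adjusted p = 0.00197). In primed cells its P-body level was 41.1 and 51.0 CPM against 8.57 and 10.3 CPM in the cytoplasm, 2.31 ± 0.16 on the log2 scale (adjusted p = 1.03e-07). Every P-body library lay above every cytoplasm library of its state. Zeb2 was scarce in naive cells, with 10 and 18 reads in P-bodies and 3 and 1 in the cytoplasm, a ratio of 7.53 with a 95% exact interval of 2.63 to 29.6. In primed cells, where it was better covered, it stood at 32.2 and 34.8 CPM against 6.79 and 4.99 CPM, a log2 enrichment of 2.55 ± 0.16 (adjusted p = 6.48e-08).

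Cdh2 was enriched by 1.97 ± 0.41 in naive cells, at 9.10 and 8.60 CPM in P-bodies and 1.57 and 3.73 CPM in the cytoplasm. In primed cells it stood at 65.1 and 80.8 CPM against 23.0 and 22.8 CPM, a log2 enrichment of 1.70 ± 0.12. Snai2 was enriched by 1.73 ± 0.35 in naive cells, at 3.71 and 3.82 CPM against 1.1 and 1.54 CPM, and by 1.46 ± 0.16 in primed cells, at 23.3 and 23.9 CPM against 7.39 and 9.98 CPM. Its paralogue Snai1 was not called in either state, with 2 to 27 reads a library. Twist1 was enriched in primed cells alone by call, at 3.5 and 4.65 CPM against 2.51 and 1.87 CPM (0.94 ± 0.33), where it was not called without P-body or cytoplasm replicate 2 (0.72 and 0.73), and had 4 to 15 reads a library in naive cells.

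Cdh1 was lower in P-bodies than in the cytoplasm in both states. In primed cells its P-body level was 294 and 314 CPM against 1353 and 1257 CPM in the cytoplasm, a log2 enrichment of −2.07 ± 0.05 (adjusted p = 4.37e-11). In naive cells it stood at 656 and 630 CPM against 2010.2 and 1044.9 CPM, −1.04 ± 0.33, which missed the threshold (adjusted p = 0.0548). The naive cytoplasm libraries decided this value, which was −0.44 without replicate 1 and −1.45 without replicate 2, both called. Krt8 turned sign with the same library, from −0.65 ± 0.62 to 0.66 without naive cytoplasm replicate 1. Leaving out either naive P-body library left Zeb1 as the 1 member called, and leaving out naive cytoplasm replicate 1 left 7. Epcam and Krt18 were depleted in primed cells, at −0.76 ± 0.05 and −0.71 ± 0.07, and in naive cells lay at 0.25 ± 0.23 and −0.21 ± 0.35.

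The wider lists were set beside the members for P-body enrichment. In MEFs 7 of 34 mesenchymal genes tested were enriched and 24 depleted (median log2 enrichment −1.22), and Fn1, the gene of fibronectin, stood at −2.52 ± 0.08. Of 27 epithelial genes tested, 2 were enriched and 5 depleted (median 0.04). In primed ES cells 6 of 27 mesenchymal genes were enriched and 12 depleted (median −0.23), with Fn1 at −1.83 ± 0.06, and 3 of 38 epithelial genes were enriched and 22 depleted (median −0.48). In naive ES cells the counts were 3 and 9 of 24 for mesenchymal genes (median −0.90) and 1 and 15 of 37 for epithelial genes (median −0.67). The mesenchymal list as a whole thus had a negative median in ES cells where Cdh2, Snai2, Zeb1 and Zeb2 were enriched. Of the TGF-beta and BMP genes, 6 of 21 were enriched and 13 depleted in MEFs, 7 and 4 of 22 in naive cells, and 12 and 6 of 22 in primed cells. Of all genes tested, 26.6% were enriched and 28.7% depleted in MEFs, 22.6% and 15.4% in naive cells, and 26.5% and 24.2% in primed cells. The number of TGF-beta and BMP genes enriched in MEFs and the numbers depleted in naive and in primed cells lay near those shares. So did the number of mesenchymal genes enriched in primed cells. Id1 and Id2 were enriched in MEFs by 3.81 ± 0.11 and 3.0 ± 0.15, and Smad4, the shared SMAD of both branches, was enriched in primed cells by 2.35 ± 0.28.

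**Figure D3:**
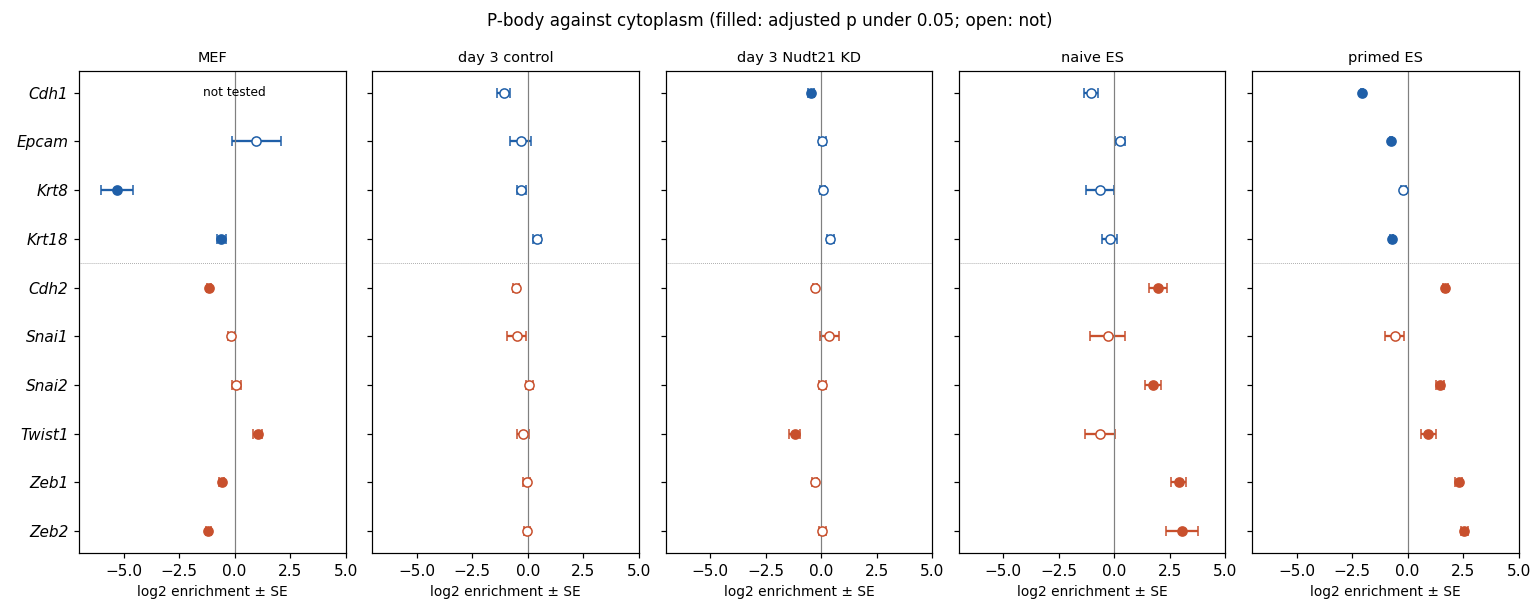
Log2 enrichment in P-bodies over cytoplasm with SE for the 10 genes in MEFs, day 3 control, day 3 Nudt21 knockdown, naive ES and primed ES cells, with 2 libraries a fraction. Epithelial genes are blue and mesenchymal genes orange, filled points passed an adjusted p under 0.05, and Cdh1 was not tested in MEFs. Zeb1 and Zeb2 lie at −0.58 and −1.19 in MEFs, at −0.05 and −0.04 in day 3 control, and at 2.89 and 3.03 in naive ES cells.

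Whether enrichment itself differed between cell states was tested as an interaction over the 4 groups involved. Between day 3 control cells and MEFs, 4 members had a higher difference and 1 a lower, where 9.59% of all tested genes had a higher and 5.13% a lower difference. The log2 enrichment at day 3 was higher for Zeb2 by 1.19 ± 0.18 (adjusted p = 0.00308), for Krt18 by 1.06 ± 0.29 and for Cdh2 by 0.65 ± 0.15. The level of Zeb2 was lower at day 3 in both fractions, at 29.8 and 25.8 CPM in P-bodies against 47.2 and 41.3 CPM in MEFs and, in the cytoplasm, at 29.5 and 28.1 CPM against 101 and 98.5 CPM. Twist1 had a lower enrichment at day 3, with a difference of −1.20 ± 0.36 (adjusted p = 0.0476). The difference for Krt8 was 5.02 ± 0.58, a fitted value that depends on its 2 reads in MEF P-bodies. Higher differences were common among mesenchymal genes, with 19 of 35 higher and 3 lower (median 0.64), beside a median of 0.00 over all genes. The 6 fibroblast markers all belong to those 35 genes and are no separate evidence. Of them 4 were higher and 0 lower (median 1.63). Leaving out 1 library at a time left 1 to 6 of the 10 called, with Krt8 alone called without day 3 control cytoplasm replicate 2. Krt18 and Twist1 lost their calls whichever cytoplasm or MEF P-body library was left out, and Cdh2 whichever cytoplasm library was left out.

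The comparisons of ES cells with MEFs were added after the enrichment within each state was known. In naive ES cells against MEFs 5 members had a higher difference and 1 a lower, where 21.5% of all tested genes had a higher and 19.8% a lower difference. In primed ES cells against MEFs it was again 5 and 1, where 23.1% and 18.5% of all tested genes were called. Both use the same MEF libraries. Zeb2 differed by 4.08 ± 0.53 in naive and 3.70 ± 0.19 in primed cells (adjusted p = 1.99e-04 and 4.01e-08). Zeb1 differed by 3.28 ± 0.35 and 2.85 ± 0.21, Cdh2 by 2.93 ± 0.32 and 2.81 ± 0.16, and Snai2 by 1.48 ± 0.47 and 1.36 ± 0.33. Twist1 differed from MEFs in naive cells, by −1.88 ± 0.64, and Epcam in primed cells, by −1.78 ± 0.61. Zeb2, Zeb1 and Cdh2 were called in both comparisons whichever library was left out. Snai2 was not called in naive cells without any one naive library (1.28 to 1.72), nor in primed cells without primed cytoplasm replicate 1 (1.17). Twist1 in naive cells was called in 2 of the 8 fits without a library, and Epcam in primed cells in 3 of the 8. Krt8 in naive cells was not called without either MEF P-body library (4.66 and 4.58). The value of Epcam was −0.81 and not called without MEF P-body replicate 2, the library with 90.1 CPM of lung epithelial markers, while Cdh2, Snai2, Zeb1 and Zeb2 were called without it in both comparisons. Snai1 differed by −0.30 ± 0.65 and −0.46 ± 0.42 and was not called. The median difference of all genes was −0.17 for naive cells and −0.03 for primed cells.

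**Figure D4:**
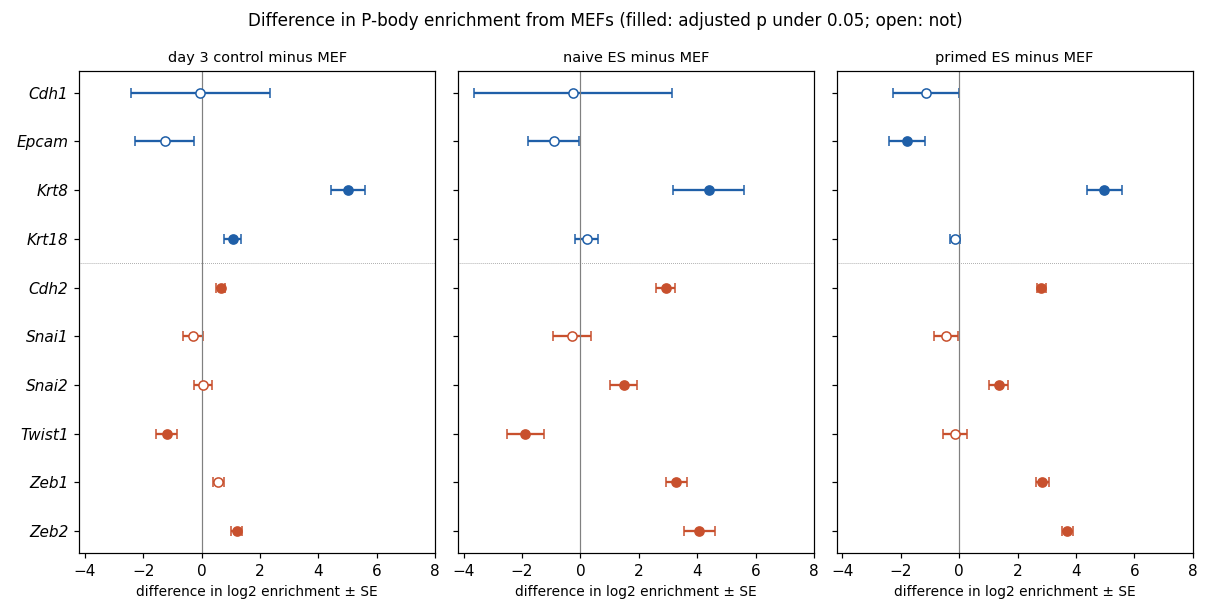
Difference in log2 P-body enrichment from MEFs, with SE, for day 3 control, naive ES and primed ES cells, each an interaction over 4 groups of 2 libraries. Epithelial genes are blue, mesenchymal genes orange, and filled points passed an adjusted p under 0.05. Zeb2 lies at 1.19, 4.08 and 3.70, and Cdh1, with 2 reads in MEF P-bodies, has SEs of 2.38, 3.39 and 1.13.

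Naive and primed cells differed in enrichment for Epcam, by 0.87 ± 0.25 (adjusted p = 0.0344), and edgeR called 0 of the other 9 members, where 13.9% of all tested genes had a higher and 11.4% a lower difference. Leaving out any P-body library or either primed cytoplasm library left 0 of the 10 called, and leaving out naive cytoplasm replicate 1 or replicate 2 gave 5 and 4. For Zeb1, Zeb2, Cdh2 and Snai2 the difference between naive and primed cells lay between 0.12 and 0.44, with SEs of 0.33 to 0.57. Over the alternatives that of Zeb1 ran from 0.03 to 1.02, the latter without naive cytoplasm replicate 2. That of Cdh2 ran from −0.34 to 0.83. Between the Nudt21 knockdown and its control 0 of the 10 were called by edgeR and 0 by DESeq2, 1 had an unadjusted p under 0.05, and 0% of all tested genes had a higher and 0.0118% a lower difference. Of the 16973 genes tested, 819 had an unadjusted p under 0.05 and DESeq2 called 26. The difference for Twist1 was −0.95 ± 0.41 (adjusted p = 0.894) and that for Cdh1 0.67 ± 0.34. Without day 3 control P-body replicate 1, Cdh1 (1.20) and Twist1 (−1.27) were called.

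In Ago2 KO ES cells, which lack an Argonaute protein that carries microRNAs, Ago2 itself stood at 2.57 to 4.52 CPM. The replicates of these fractions stood apart, with a chi-square divided by its degrees of freedom of 306 in the cytoplasm and 40.7 in P-bodies. The 10 most abundant genes took 25.0% and 41.6% of the reads of the cytoplasm libraries and 13% and 17.8% of those of the P-body libraries. Snai2 was the 1 member called P-body-enriched, at 4.42 and 4.63 CPM in P-bodies and 1.34 and 1.67 CPM in the cytoplasm (log2 enrichment 1.54 ± 0.39, adjusted p = 0.0492), where 5.47% of all tested genes were enriched and 1.05% depleted. Zeb1 stood at 32.6 and 35.5 CPM against 13.6 and 18.2 CPM, 1.05 ± 0.27, which missed the threshold (adjusted p = 0.0529). Cdh1 stood at 260 and 283 CPM against 408 and 514 CPM (−0.81 ± 0.30, adjusted p = 0.141). Snai2 was not called without either P-body library (1.57 and 1.51). Zeb1 was called without cytoplasm replicate 1 (0.68) or replicate 2 (1.34), and Cdh1 without cytoplasm replicate 1 (−1.15). Zeb2 had 13 and 9 reads in P-bodies and 3 and 6 in the cytoplasm. These libraries were counted by another pipeline than the naive ones, so the enrichments stand side by side and were not tested against each other, and the number of members called ran from 0 to 3 over the alternatives.

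Ribosome occupancy, polysome-bound over total RNA, was lower for Cdh1, Krt8, Krt18, Cdh2 and Zeb1 in control ES cells. All 5 were called lower and 0 higher, where 18.8% of all tested genes were higher and 24.1% lower. Cdh1 stood at 87.5, 84.4 and 84.0 CPM on polysomes and 300.1, 306 and 284 CPM in total RNA, a log2 occupancy of −1.97 ± 0.06 (adjusted p = 7.77e-13). Cdh2 and Krt8 both lay at −1.18, with SEs of 0.16 and 0.18, Krt18 at −0.67 ± 0.19 and Zeb1 at −0.50 ± 0.08. Krt18 was not called without control polysome replicate 2 (−0.50). Epcam overlapped between the fractions, at −0.16 ± 0.07. After DDX6 degradation, edgeR called 0 members in total RNA, where 1.24% of all tested genes were higher and 2.07% lower, 3 members had an unadjusted p under 0.05 and DESeq2 called 0. Of the 15380 genes tested, 2981 had an unadjusted p under 0.05 and DESeq2 called 832. Cdh1 stood at 266, 262 and 272 CPM there, a log2 fold change of −0.15 ± 0.05 (adjusted p = 0.108), which was called without control total replicate 3 (−0.18), and Snai2 at 0.79 ± 0.30 rested on 10 to 31 reads a library. Occupancy after DDX6 degradation was called changed for 0 members by edgeR and 0 by DESeq2, 0 had an unadjusted p under 0.05, and 0% of all tested genes had a higher and 0% a lower difference. Of the 16345 genes tested there, 844 had an unadjusted p under 0.05 and DESeq2 called 4.

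The genes most like Cdh1 and Zeb2 across the 10 group means of both fractions were ranked by the root mean square difference of centred log2(CPM + 1) values, among 12254 genes with a highest group mean of at least 10 CPM. Cdh1 was followed most closely by Slc2a3, Spint1 and Nodal, at differences of 0.89, 1.17 and 1.19, with Epcam at rank 33. Zeb2 was followed by Gask1b, Cnn2 and Ebf2, at 0.54, 0.58 and 0.58. Snai2 came at rank 4 and Cdh2 at rank 23 of that order, Zeb1 at rank 3744. The order describes these 10 means, which share libraries and depth.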

How the data were processed

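By the study's methods, lysate cleared of nuclei was spun again, and the resuspended pellet was the cytoplasmic fraction. P-bodies were sorted from it as GFP-LSM14A particles, and an unsorted aliquot of it gave the cytoplasm libraries. Libraries of both fractions were made with a full-length cDNA kit that does not mark strand, except where the study names a random-primed preparation. Which of these the Ago2 KO libraries had is not stated for them. The authors aligned reads to mm10 with HISAT2 and counted them over RefSeq exons with featureCounts. They used salmon for the polysome, total and Ago2 KO libraries. The deposited values were estimated counts in all 3 tables, and fractions were rounded to whole reads. The deposited fold changes and p-values of the authors' own comparisons were not used. The rule by which fractional reads were shared between genes is not given in the sources used here, and Krt8 and Krt18 have processed copies elsewhere in the genome, so their counts are uncertain.

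Samples were grouped by the labels (36 libraries, 16 groups). The members and gene lists were chosen with earlier results of these data known. Genes with at least 10 reads over the libraries of a fit were tested with edgeR 4.0.16 quasi-likelihood tests (R 4.3.3, TMM factors, Benjamini-Hochberg adjustment over all genes tested, threshold 0.05), with only the groups compared in each fit. Differences in enrichment or occupancy were interactions. From each other list, up to 3 called genes per comparison with the largest change and a mean of at least 10 CPM could be named. Alternatives were DESeq2 size factors, DESeq2 1.42.0, filterByExpr, no filter, a replicate block, all libraries of a table in a single fit, and leaving out each library, where a lone library was assumed to vary like the other groups. Ratios of summed reads have 95% exact binomial intervals, which cover counting error only. The fitting code was tested on simulated data. Assigned reads ran from 13308776 to 29362187 for polysome and total RNA, and from 15624342 to 17486206 for Ago2 KO fractions. Sequences were read with Python 3.11.15. The promoter window of Krt8 is not reported here.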

Additional observations from a re-analysis of the deposited data

Results flagged for a closer look

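The results below were singled out because the difference in enrichment between cell states itself passed the edgeR test (adjusted p under 0.05), with 2 libraries in each of the 4 groups of a comparison. Between day 3 control cells and MEFs these were Cdh2 (0.65), Krt8 (5.02), Krt18 (1.06), Twist1 (−1.20) and Zeb2 (1.19), as differences of log2 enrichment. Between naive and primed ES cells it was Epcam (0.87). Between naive ES cells and MEFs they were Cdh2 (2.93), Krt8 (4.40), Snai2 (1.48), Twist1 (−1.88), Zeb1 (3.28) and Zeb2 (4.08). Between primed ES cells and MEFs they were Epcam (−1.78), Cdh2 (2.81), Krt8 (4.98), Snai2 (1.36), Zeb1 (2.85) and Zeb2 (3.70). The last 2 comparisons were chosen after the data had been seen, and all 3 comparisons with MEFs share the same MEF libraries. The values of Krt8 against MEFs rest on 2 reads in MEF P-bodies. That of Epcam against MEFs rests on 12 reads in MEF P-bodies and 7 in MEF cytoplasm. For naive cells, Zeb2 had 4 reads in the cytoplasm, and Twist1 had 11 in P-bodies and 22 in the cytoplasm.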

How the results depend on the processing

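Of 212 counts of called members recomputed under an alternative, 168 stayed within 1.5 times the reported count. These include every case in which both counts were 0, as for occupancy after DDX6 degradation, where no call could be kept. Of 2106 recomputed log2 fold changes of single members, 1954 kept their side of the threshold, 64 gained a call, 85 lost one and 3 reversed. A change of direction was counted as a reversal only where the member was called in the main or the alternative fit. Members not called in either could change direction among the 1954, and Snai1 enrichment in naive cells ran from −1.89 to 0.41. The cause was not tested for any of these changes. With all libraries in a single fit, 5 members were called for the Nudt21 knockdown in the cytoplasm, 2 for day 3 control enrichment, 1 for knockdown enrichment, 2 for the difference between naive and primed cells, and 1 for total RNA after DDX6 degradation. DESeq2 called 2 for day 3 control enrichment, 2 for naive against primed and 3 for Ago2 KO enrichment. No filter gave 2, 2 and 2 for those comparisons. For Ago2 KO enrichment, DESeq2 size factors and filterByExpr each gave 0. Same-numbered libraries deviated from their group means with correlations from −0.35 to 0.60 over 12 comparisons, some of them between separate cell states. Between P-body and cytoplasm libraries the correlation ran from −0.05 in naive cells to 0.17 in the knockdown, but was 0.60 in Ago2 KO cells. The main test took no pairs in any comparison, and for Ago2 KO these correlations give no ground for that. By the study's methods each P-body pellet had a cytoplasm aliquot from the same preparation, but the labels do not tie the numbers of the 2 fractions. The replicate block gave 1 member for day 3 control enrichment, 2 for naive against primed and 3 for Ago2 KO enrichment. It gave 5 for naive enrichment (4 without it), 3 for knockdown enrichment (2) and 4 for the difference between day 3 control and MEF (5).

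Leaving out 1 library at a time gave 0 to 4 members for day 3 control enrichment, 0 to 5 for knockdown enrichment, 1 to 7 for naive enrichment, 1 to 6 for the difference between day 3 control and MEF, 0 to 2 for that between knockdown and control, 0 to 5 for naive against primed, 0 to 3 for Ago2 KO and 0 to 1 for total RNA after DDX6 degradation. The enrichment of Snai2 in MEFs ran from −0.36 to 0.41, that of Krt8 in naive cells from −1.31 to 0.66, and the naive to primed difference of Krt8 from −1.26 to 0.72.

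Over all genes, day 3 control enrichment had 102 calls in edgeR, 2105 in DESeq2, 202 with filterByExpr, 1940 with no filter, 802 with the replicate block and 3891 in the single fit. The single fit moved the median of all genes from −0.01 to −0.21 for naive cells against MEFs and from 0.00 to −0.14 for naive against primed cytoplasm, and no filter moved it from 0.03 to 0.19 for MEF enrichment. Depth limits Cdh1, Epcam and Krt8 in MEFs and Zeb2, Snai1 and Twist1 in naive cells most, where libraries held a few reads.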
